A study of Mus musculus with 7 samples.

Results

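The genes examined were Ngfr, which encodes the p75 neurotrophin receptor, together with its co-receptors Sort1 and Sorcs2, its intracellular adaptors Bex3, Maged1, Traf6 and Arhgdia, and the neurotrophin ligands Ntf3 and Bdnf. These 9 genes were chosen by symbol for their role in p75 signalling. Of them, 8 were measured here, among 21176 genes in all, and Bdnf was not analysed here. RNA came from follicular dendritic cells (FDCs), which hold antigen for B cells in lymphoid follicles. They were flow-sorted out of the popliteal nodes of male mice aged 8 to 12 weeks that had not been immunized. The wild type (WT) was represented by 4 samples and the Ngfr knockout (Ngfr KO) by 3. Each sample was a separate pool of lymph nodes from several animals, so p-values measure the spread between pools. The labels do not name the knockout allele or the strain, nor do they say whether the deletion was limited to a cell type.

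The p75 receptor belongs to the tumour necrosis factor receptor superfamily and binds all neurotrophins with similar, low affinity. With the Trk receptor kinases it takes part in responses to mature neurotrophins, and with sortilin or a related Vps10p-domain protein it binds the uncleaved proneurotrophins. It has no kinase of its own and signals through adaptor proteins that bind its intracellular part. In lymphoid tissue p75 is best known as a surface marker of FDCs.

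Each value below is the authors' normalised signal per gene, a read count scaled by 1 factor per sample. A value of 1 stood for 230 to 295 reads. The Ngfr KO libraries held 20741770 to 21538400 reads and the WT libraries 17244925 to 18873542, so every Ngfr KO library was deeper. The 12 FDC markers examined were all above 0 in every sample, led by Cxcl13. Their summed value was 1815 to 5091 in WT against 7802 to 10334 in Ngfr KO, and 10 of the 12 rose. Of 13 endothelial markers 12 fell, and their summed value was 118 to 165 in WT against 28.4 to 50.3 in Ngfr KO. WT replicate 1 stood apart, with the lowest sum of FDC markers and the highest of endothelial markers, so results are also given without it. Mitochondrially encoded transcripts took 5.55% to 7.42% of reads in WT and 3.14% to 4.97% in Ngfr KO. In these bulk samples, fewer cells of a type and less RNA per cell cannot be told apart.

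Ngfr, Ntf3 and Sort1 fell in Ngfr KO, each to about 32 to 49% of its WT mean, while the other 5 measured genes did not pass the test. The test was limma's moderated test across all 14592 genes with sufficient signal, with Benjamini-Hochberg adjustment, and genes with an adjusted p under 0.05 were called. All 8 measured genes passed the filter on low values, which kept genes that reached 0.1 in 3 or more samples. The 3 calls were 37.5% of the 8 genes, against 22.2% of all genes tested. They include Ngfr, the gene targeted by the knockout, so 37.5% is not the share of its partners and ligand alone. An excess of calls was not tested. Calls in the lower direction made up 11.3% of all genes tested. The median log2 change was -0.06 over the 8 genes and -0.04 over all genes tested. None of the 8 was called higher. Of all genes tested 11% were, and a count of 0 of 8 is near that share. At an unadjusted p under 0.05, the main limma fit gave 0 of the 8 higher, and edgeR and DESeq2 on recovered reads each gave 1, Maged1. Some alternative limma settings also gave Maged1. Without WT replicate 1, 2 of the 8 were called, Ngfr and Ntf3, against 14.5% of all genes. The groups did not overlap for 3 of the 8, Ngfr and Sort1 lower and Maged1 higher. That is 37.5%, against 33.2% of all genes tested, of which 16.6% were lower and 16.6% higher. All log2 changes are Ngfr KO minus WT, on log2(value + 0.1).

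**Figure D1:**
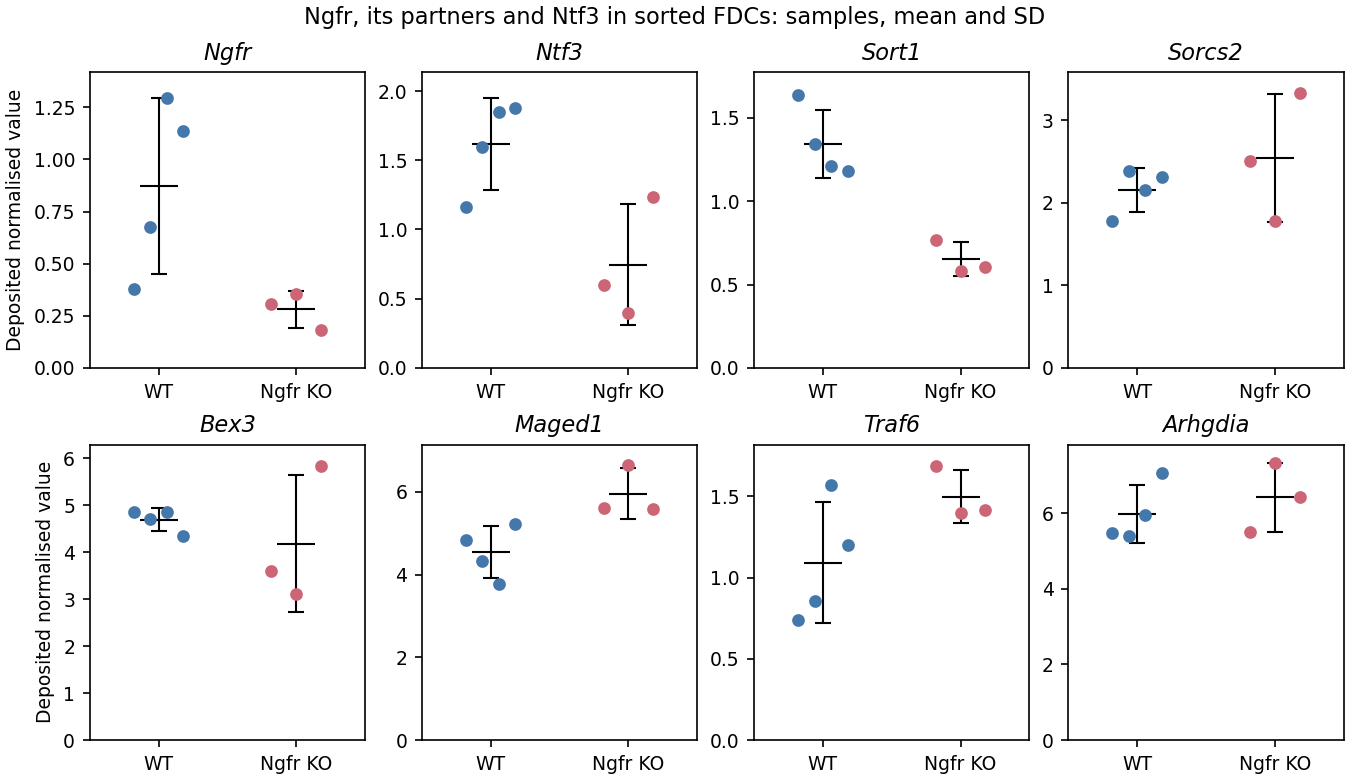
Normalised values of the 8 measured genes (y axis, linear, from 0) in the 4 WT and 3 Ngfr KO samples. Points are samples, and black bars give the mean and SD. Ngfr and Sort1 lay lower in all Ngfr KO samples than in all WT samples, and Maged1 lay higher.

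The targeted gene, Ngfr (ENSMUSG00000000120), is a protein-coding gene at 95568818 to 95587735 of chromosome 11, minus strand, in GENCODE M21 (GRCm38). Its value was 0.377, 0.677, 1.30 and 1.14 in WT replicates 1 to 4 and 0.305, 0.353 and 0.184 in Ngfr KO replicates 1 to 3. Every Ngfr KO sample was below every WT sample, but WT replicate 1 lay close to the highest Ngfr KO sample. The mean fell from 0.872 ± 0.421 (SD, n = 4) to 0.281 ± 0.087 (SD, n = 3), which was 32.2% of the WT mean. The log2 change, -1.26 with an SE of 0.40, had a limma adjusted p of 0.0394, with a 95% interval from -2.12 to -0.40. Between 46 and 104 Ngfr reads remained in each Ngfr KO library, and a value summed over a gene cannot tell which exons they came from. Without WT replicate 1 the log2 change was -1.56 (limma adjusted p = 0.0164). Without any 1 of the other 6 samples Ngfr was not called, with limma adjusted p from 0.0651 to 0.114, nor was it with edgeR on recovered reads (adjusted p = 0.0574). The size of the log2 change depends on the pseudocount: with 1 in place of 0.1 it was -0.52 for Ngfr, -0.61 for Ntf3 and -0.50 for Sort1, all still called by limma.

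WT replicate 1 had both the lowest Ngfr value of the WT samples and the lowest sum of FDC markers. For a further view its value was divided by that of Cr2, the gene of the complement receptors CD21 and CD35, which both FDCs and mature B cells express. This ratio was chosen after the values were seen, and Cr2 itself rose in Ngfr KO. The summed B-cell markers were also higher in every Ngfr KO sample, so the ratio is not a level per FDC. Per 1000 units of Cr2, Ngfr stood at 14.3, 8.84, 23.3 and 27.0 in WT replicates 1 to 4 and at 3.15, 3.70 and 1.66 in Ngfr KO replicates 1 to 3. The lowest WT ratio was 2.39 times the highest Ngfr KO ratio.

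The sequence around the Ngfr transcription start is shown beside that of Ntf3, as the receptor and the ligand that both fell and for which RefSeq windows were found. Each window runs from 250 bases before to 50 bases after a RefSeq start (GRCm38.p6), 5′ to 3′ on the gene's strand, with capitals marking the GC box GGGCGG on either strand. The Ngfr window is chr11:95587649-95587948, and the Ntf3 windows, for its 2 RefSeq starts, are chr6:126166695-126166994 and chr6:126164911-126165210, all on the minus strand.
Ngfr: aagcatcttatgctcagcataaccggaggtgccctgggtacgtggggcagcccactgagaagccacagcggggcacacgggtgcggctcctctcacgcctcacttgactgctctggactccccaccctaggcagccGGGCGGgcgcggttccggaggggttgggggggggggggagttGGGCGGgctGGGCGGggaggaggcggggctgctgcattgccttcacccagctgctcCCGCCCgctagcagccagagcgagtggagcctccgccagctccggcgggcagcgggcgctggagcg
Ntf3 window 1: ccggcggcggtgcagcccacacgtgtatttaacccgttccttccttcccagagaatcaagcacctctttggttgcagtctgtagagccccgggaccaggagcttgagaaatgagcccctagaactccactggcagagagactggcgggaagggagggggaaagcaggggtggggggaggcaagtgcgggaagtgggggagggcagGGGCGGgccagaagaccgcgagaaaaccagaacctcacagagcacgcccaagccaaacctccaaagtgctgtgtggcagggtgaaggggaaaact
Ntf3 window 2: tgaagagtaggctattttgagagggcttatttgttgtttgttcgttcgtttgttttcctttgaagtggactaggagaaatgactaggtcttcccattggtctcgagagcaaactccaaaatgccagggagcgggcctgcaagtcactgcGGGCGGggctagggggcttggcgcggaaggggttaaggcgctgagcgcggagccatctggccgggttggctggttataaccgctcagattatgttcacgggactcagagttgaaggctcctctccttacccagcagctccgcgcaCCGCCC
The Ngfr window held 4 GC boxes and 71.7% G and C. The Ntf3 windows held 1 and 2 GC boxes, with 61% and 55.7% G and C. Among all 32851 windows of this length, 35.7% held at least 1 GC box, 5.49% held 4 or more, and the median G and C content was 52.7%. The E-box CANNTG was found 2 times in the Ngfr window and 2 times and 1 time in the Ntf3 windows, and 72.3% of all windows hold it. The AP-1 motif TGANTCA was found in none of the 3 windows, and 7.81% of all windows hold it. Both strands were searched, and matches of different motifs shared no bases. A match is a description of the sequence and does not show a bound site.

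The ligand Ntf3 fell. Ntf3 (ENSMUSG00000049107; chromosome 6, 126101412 to 126166910, minus strand) encodes neurotrophin-3, the preferred ligand of TrkC. Its value was 1.16, 1.60, 1.85 and 1.88 in WT replicates 1 to 4 and 0.602, 0.397 and 1.24 in Ngfr KO replicates 1 to 3. The groups overlapped, since Ngfr KO replicate 3 lay above WT replicate 1. The mean went from 1.62 ± 0.33 (SD, n = 4) to 0.745 ± 0.438 (SD, n = 3). The log2 change, -1.13 with an SE of 0.34, had a limma adjusted p of 0.0333, with a 95% interval from -1.86 to -0.39. Without WT replicate 1 it was -1.27 (limma adjusted p = 0.0349), and without Ngfr KO replicate 3 it was -1.52 (limma adjusted p = 0.00936). Ntf3 was not called without any 1 of the other 5 samples, nor with edgeR on recovered reads (adjusted p = 0.0754). Ntf5, which encodes neurotrophin-4, was not analysed here.

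Sort1 (ENSMUSG00000068747; chromosome 3, 108284082 to 108361511, plus strand) encodes sortilin, the Vps10p-domain co-receptor that binds the prodomain of proneurotrophins. Its value was 1.63, 1.34, 1.21 and 1.18 in WT replicates 1 to 4 and 0.769, 0.583 and 0.605 in Ngfr KO replicates 1 to 3. The groups did not overlap, and the lowest WT sample lay well above the highest Ngfr KO sample. The mean fell from 1.34 ± 0.21 (SD, n = 4) to 0.652 ± 0.102 (SD, n = 3), and the log2 change of -0.94 had an SE of 0.26 (limma adjusted p = 0.0225). It was not called without WT replicate 1 (log2 change -0.85, limma adjusted p = 0.0710), without WT replicate 2 (0.0578) or without Ngfr KO replicate 2 (0.0776). The annotation places an antisense gene, Gm12523, over Sort1. Whether its reads were counted with those of Sort1 cannot be told from the values, and the counting method is not given.

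The sample with the highest Sort1 value, WT replicate 1, also had the highest endothelial marker score. That score, the mean log2(value + 0.1) over 13 markers, was 2.25 to 2.75 in WT against 0.33 to 0.93 in Ngfr KO. The FDC marker score over 12 markers moved the other way, from 4.78 to 6.12 in WT to 7.30 to 7.49 in Ngfr KO. The defining endothelial genes Pecam1, at 10.5 to 18.3 in WT against 3.43 to 4.88 in Ngfr KO, and Cdh5, at 13.4 to 24.9 and 4.29 to 7.11, were above 0 in all 7 samples. Their part in the falls of Ngfr, Ntf3 and Sort1 was not tested.

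**Figure D2:**
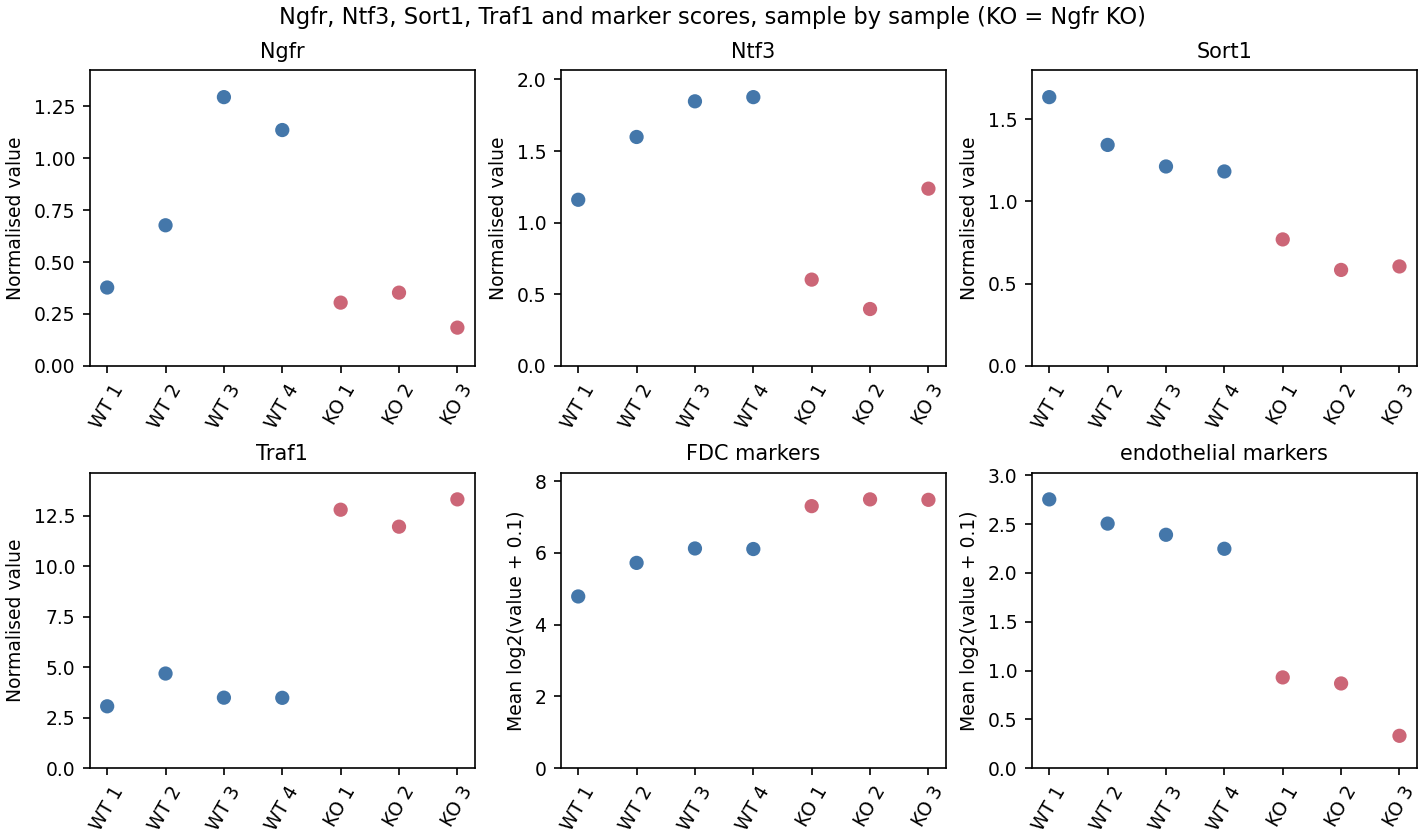
Normalised values of Ngfr, Ntf3, Sort1 and Traf1 (an adaptor gene described further on) and marker scores (mean log2(value + 0.1)) in each WT and Ngfr KO (KO) sample, numbered by replicate. All 3 Ngfr KO samples lie below all WT samples for Ngfr, Sort1 and the endothelial score, and above them for Traf1 and the FDC score.

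Sorcs2 (chromosome 5, 36017180 to 36398139, minus strand) encodes another Vps10p-domain co-receptor of p75. Its value was 1.79, 2.38, 2.16 and 2.32 in WT replicates 1 to 4 and 2.50, 1.78 and 3.34 in Ngfr KO replicates 1 to 3. Ngfr KO replicate 2 lay at the level of the lowest WT sample, and the other 2 Ngfr KO samples lay above all WT samples. The log2 change, 0.19 with an SE of 0.24, had a limma adjusted p of 0.597. The 95% interval of the fold, 0.793 to 1.64, left room for changes of either sign, and the sign turned to -0.02 without Ngfr KO replicate 3. Whether Sort1 and Sorcs2 differed from each other in their response was not tested.

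None of the 4 intracellular adaptors passed limma's test. At an unadjusted p under 0.05 the main limma fit gave 0 of them, while edgeR and DESeq2 each gave 1, Maged1, and called 0. Limma also gave Maged1 at that threshold with no filter, median ratio scaling, array weights and without WT replicate 4. It gave Traf6 with array weights and without WT replicate 3, and Bex3 without Ngfr KO replicate 3. Maged1 (chromosome X, 94535474 to 94542143, minus strand) encodes NRAGE, a MAGE-family protein that binds the intracellular part of p75. Its value was 4.83, 4.32, 3.79 and 5.23 in WT replicates 1 to 4 and 5.62, 6.66 and 5.59 in Ngfr KO replicates 1 to 3. All Ngfr KO samples lay above all WT samples, but by a small margin. The log2 change of 0.39 (SE 0.19, limma adjusted p = 0.147) corresponded to a fold of 1.31, with a 95% interval from 0.991 to 1.73.

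Traf6 (chromosome 2, 101678429 to 101701669, plus strand) encodes a ubiquitin ligase that couples p75 and other receptors to NF-κB. Its value was 0.739, 0.857, 1.57 and 1.20 in WT replicates 1 to 4 and 1.68, 1.39 and 1.42 in Ngfr KO replicates 1 to 3. WT replicate 3 lay within the Ngfr KO range, so the groups overlapped. The log2 change, 0.47 with an SE of 0.28, had a limma adjusted p of 0.245. With array weights, the 1 alternative of 18 that called it, it was 0.73 (limma adjusted p = 0.0207).

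Bex3 (chromosome X, 136270253 to 136271978, plus strand) encodes NADE, a small adaptor that binds the p75 intracellular part. Its value was 4.86, 4.71, 4.86 and 4.34 in WT replicates 1 to 4 and 3.61, 3.11 and 5.84 in Ngfr KO replicates 1 to 3. The WT samples lay close together, while the Ngfr KO samples lay on both sides of them. The log2 change of -0.21 (SE 0.22) was not called (limma adjusted p = 0.513), and the interval of the fold was 0.618 to 1.20. Bex2 and Bex4, paralogs of Bex3, had values of at most 0.0524 in any sample and missed the filter on low values. Bex2 had 0 reads in all 4 WT libraries and 13, 7 and 8 in Ngfr KO replicates 1 to 3.

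Arhgdia (chromosome 11, 120578104 to 120581624, minus strand) encodes RhoGDI alpha, which holds small GTPases of the cytoskeleton in their inactive form and is displaced by p75. Its value was 5.47, 5.40, 5.95 and 7.05 in WT replicates 1 to 4 and 5.50, 7.33 and 6.42 in Ngfr KO replicates 1 to 3. The groups overlapped almost entirely. The log2 change, 0.10 with an SE of 0.19, had a limma adjusted p of 0.721, with an interval of the fold from 0.812 to 1.42.

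**Figure D3:**
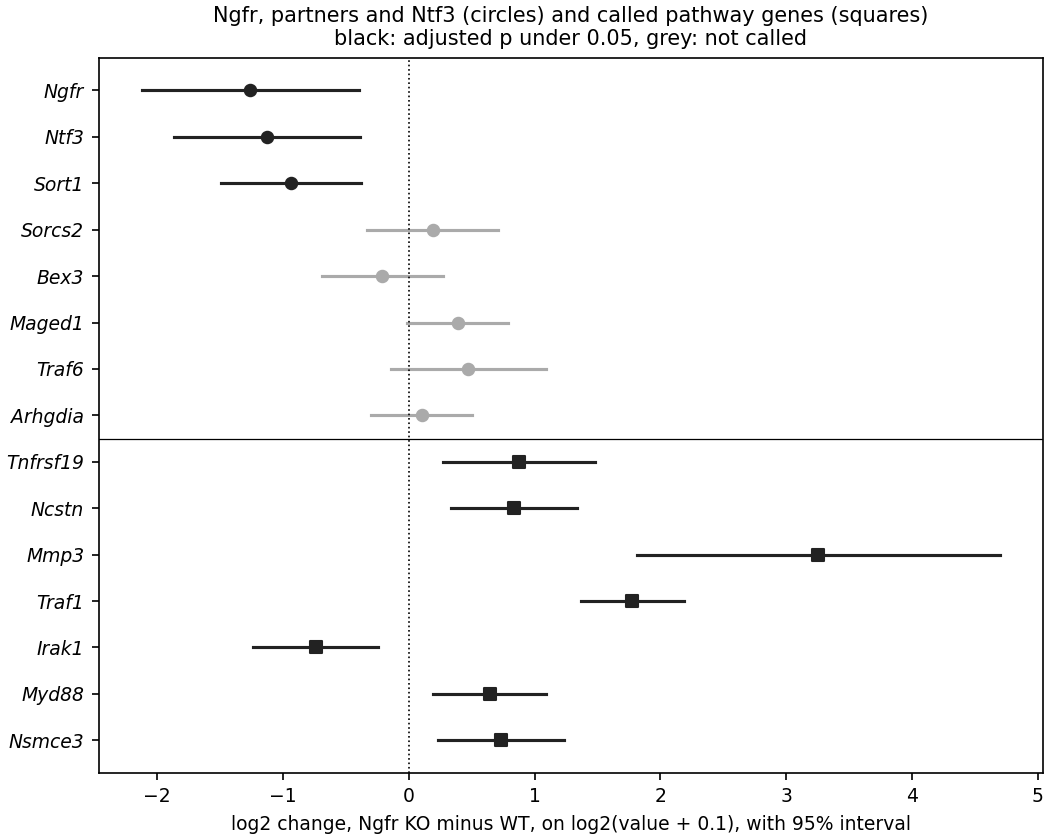
Log2 change, Ngfr KO minus WT, with its 95% interval for the 8 measured genes (circles) and the 7 pathway genes called (squares). Black marks an adjusted p under 0.05. Ngfr, Ntf3, Sort1 and Irak1 lie below 0, and the other called genes, led by Mmp3 and Traf1, lie above 0.

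To compare levels between genes, values were divided by exon length, with all exons of a gene in GENCODE M21 merged, so that the quantity is the normalised value per kb. In WT, Bex3 was highest at 4.82 ± 0.25 per kb (SD, n = 4), followed by Arhgdia at 2.64 ± 0.34. Maged1 at 1.04 ± 0.14 and Ntf3 at 0.945 ± 0.193 came next and their WT samples overlapped. Ngfr at 0.253 ± 0.122, Sorcs2 at 0.246 ± 0.030, Sort1 at 0.177 ± 0.027 and Traf6 at 0.138 ± 0.047 were lowest, and each overlapped its neighbour in this order. The Ntf3 samples, from 0.677 upwards, lay above all Ngfr samples, which reached 0.376 at most.

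In Ngfr KO the order per kb was the same for the 4 highest genes, although Bex3 and Arhgdia overlapped there. Ngfr moved to the lowest place, at 0.0814 ± 0.0252 per kb (SD, n = 3), beside Sort1 at 0.0862 ± 0.0134. The Ngfr and Sort1 samples overlapped. Sorcs2 at 0.289 ± 0.088 and Traf6 at 0.190 ± 0.020 lay above both of them in every Ngfr KO sample. These orders are descriptions of levels and were not tested.

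**Figure D4:**
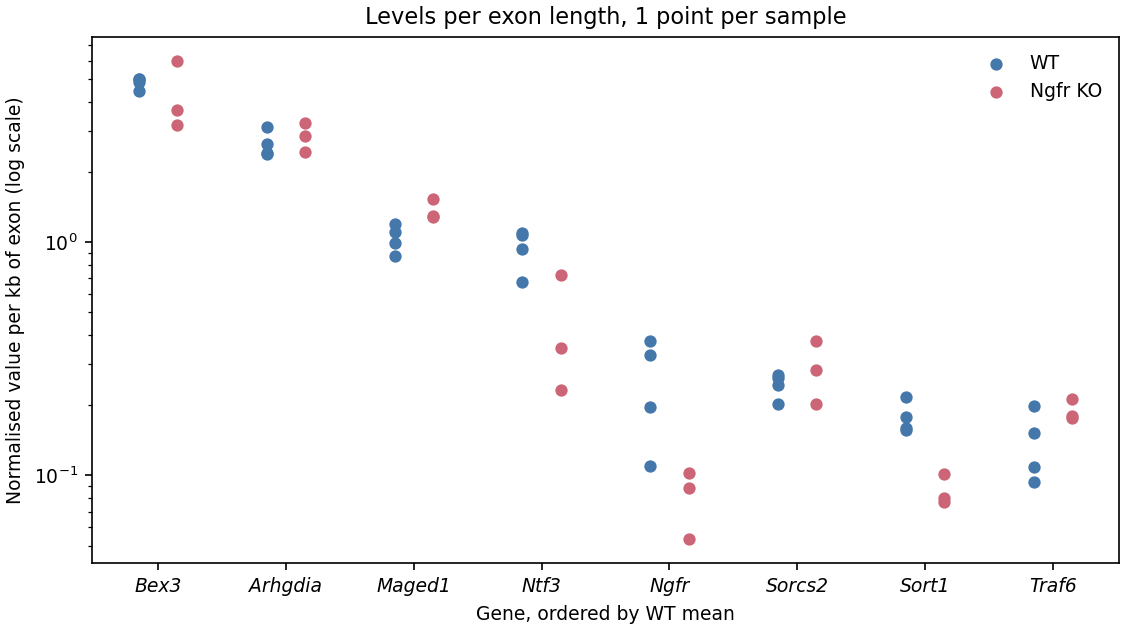
Normalised value per kb of exon (log axis) for the 8 measured genes, ordered by WT mean, with 1 point per sample. Bex3 and Arhgdia are highest in both genotypes, and Ngfr and Sort1 are lowest in Ngfr KO.

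The wider p75 and neurotrophin pathway was followed in 49 other listed genes, of which 45 were measured and 41 tested. Of these, 6 were called higher and 1 lower. That is 17.1% of those tested, beside 22.2% of all genes tested. Their median log2 change was 0.06. The other 4, Ntrk3, Mmp7, Bex2 and Bex4, missed the filter on low values and were given a two-sided exact permutation test over samples, whose smallest possible p was 0.0286. Bex2 and Mmp7, with 0 reads in every WT library, reached that p (0.0571 when adjusted over the 4 genes), while the groups overlapped for Bex4 and for Ntrk3 (exact test, p = 0.886). Without WT replicate 1, 3 were called, all higher, beside 14.5% of all genes.

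Ntrk2 and Ntrk3, which encode the neurotrophin receptor kinases TrkB and TrkC, were barely covered. Ntrk2 had 0 to 46 reads in WT against 9 to 34 in Ngfr KO, and its log2 change of 0.28 (SE 0.42, limma adjusted p = 0.660) did not pass the test. The 95% interval of its fold was 0.644 to 2.29. Ntrk3 had 6 to 32 reads in WT, against 4 to 44 in Ngfr KO, and its groups overlapped.

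Of 5 further co-receptor genes tested, Tnfrsf19 rose. It encodes TROY, a receptor of the p75 superfamily that can stand in for p75 in the Nogo receptor complex. Its value was 0.533 to 1.09 in WT against 1.35 to 1.58 in Ngfr KO, with no overlap, and its log2 change was 0.88 (SE 0.28; limma adjusted p = 0.0404). Of the 7 fits that left out a sample it was called in 1, without WT replicate 2, and without WT replicate 1 the limma adjusted p was 0.104. The other 4 were not called, with limma adjusted p from 0.156 to 0.892.

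Of the 8 genes for the proteases that cleave p75, 1 was called. Ncstn, which encodes nicastrin of the gamma-secretase complex, was at 2.47 to 2.94 in WT against 3.56 to 7.01 in Ngfr KO. Its groups did not overlap, and its log2 change was 0.84 (SE 0.23, limma adjusted p = 0.0231). Ncstn overlaps Copa on the opposite strand, which was not called (limma adjusted p = 0.14). The other 7, among them the genes of the shedding proteases ADAM10 and ADAM17, had limma adjusted p from 0.0536 to 0.803. Without WT replicate 2 (limma adjusted p = 0.0613), Ngfr KO replicate 1 (0.0721) or Ngfr KO replicate 2 (0.114), Ncstn was not called.

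Of 7 tested genes for proteases that process proneurotrophins, Mmp3, which encodes stromelysin-1, was called. It had 3, 11, 0 and 227 reads in WT replicates 1 to 4 and 386, 813 and 367 in Ngfr KO replicates 1 to 3. WT replicate 4 stood far above the other WT samples, and the limma adjusted p was 0.00563. With edgeR and DESeq2 on recovered reads Mmp3 was not called, with adjusted p of 0.119 and 0.238. The other 6 were not called, with limma adjusted p from 0.0545 to 0.693. Mmp7, which encodes matrilysin, missed the filter and had 3, 16 and 47 reads in Ngfr KO replicates 1 to 3.

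Of 20 other tested genes, for p75 adaptors and for proteins that act with or after them, 3 rose and 1 fell. Traf1, an NF-κB-induced member of the TRAF family, had 3.06, 4.69, 3.49 and 3.48 in WT replicates 1 to 4 and 12.8, 12.0 and 13.3 in Ngfr KO replicates 1 to 3. Each group was tight, and the log2 change of 1.77 (SE 0.19, limma adjusted p = 5.27e-04) was called under all 18 alternatives run. Myd88, an adaptor of Toll-like and interleukin-1 receptors, was at 1.45 to 1.86 in WT against 2.57 to 3.09 in Ngfr KO (log2 change 0.64, SE 0.21, limma adjusted p = 0.0431). Nsmce3, a MAGE-family gene, was at 1.51 to 2.71 in WT against 3.16 to 3.87 in Ngfr KO (log2 change 0.73, SE 0.23, limma adjusted p = 0.0382). Irak1, a kinase that acts between Myd88 and Traf6, was at 4.02 to 4.95 in WT against 1.93 to 3.78 in Ngfr KO (log2 change -0.74, SE 0.23, limma adjusted p = 0.0371). Without WT replicate 1, Myd88, Nsmce3 and Irak1 were not called, with limma adjusted p from 0.0710 to 0.0962. Each was called in 1 of the 7 fits that left out a sample, Myd88 and Nsmce3 without WT replicate 3 and Irak1 without Ngfr KO replicate 3. Myd88 overlaps Acaa1a on the opposite strand, which was not called (limma adjusted p = 0.173).

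The genes whose pattern over the 7 samples was most like that of Ngfr were Lypd6, Cep85l, Cep76, Nop53 and Fancf. Pearson's r of log2(value + 0.1) with Ngfr was 0.994 for Lypd6 and 0.956 to 0.963 for the other 4. These were the highest correlations among all genes tested. Lypd6, Cep76 and Fancf had low values, reaching at most 0.239, 0.404 and 0.217 in any sample. Of these 5, Cep85l was called lower (log2 change -1.37, SE 0.35, limma adjusted p = 0.0167) and the other 4 were not called. Among the genes of the p75 set, Ntf3 had r = 0.65 and Sort1 r = 0.60 with Ngfr, and Maged1 had r = -0.66. These correlations over 7 samples describe likeness, and the samples share their genotype difference and their sorting.

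Markers of other cell types that a sort from lymph nodes could hold were counted beside these results. Of 8 Schwann cell markers 3 were measured, with a summed value of 0.261 to 1.01 in WT against 0.549 to 0.686 in Ngfr KO. The 1 tested, Mbp, was not called (limma adjusted p = 0.646), and S100b reached at most 0.0721. Of 11 mural cell markers 10 were measured, and their summed value was 25.3 to 61.7 in WT against 48.0 to 80.2 in Ngfr KO, and of the 8 tested 3 rose and 0 fell. That of 9 reticular stroma markers was 49.5 to 151 in WT against 98.8 to 126 in Ngfr KO. The sum was 16.4 to 28.7 and 30.8 to 60.3 for 9 B-cell markers, 2.29 to 9.82 and 2.93 to 8.93 for 8 T-cell markers, and 26.7 to 87.5 and 33.5 to 56.3 for the 8 measured of 9 myeloid markers, in WT and Ngfr KO respectively. The B-cell sum was higher in every Ngfr KO sample than in every WT sample, and the other 5 sums overlapped between the groups. Blnk, at 2.44 to 7.56 in WT against 17.8 to 28.2 in Ngfr KO, led the B-cell sum and was the only 1 of the 9 called. The B-cell marker score, the mean log2(value + 0.1), overlapped between the groups. The part of these cells in the results was not tested.

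**Figure D5:**
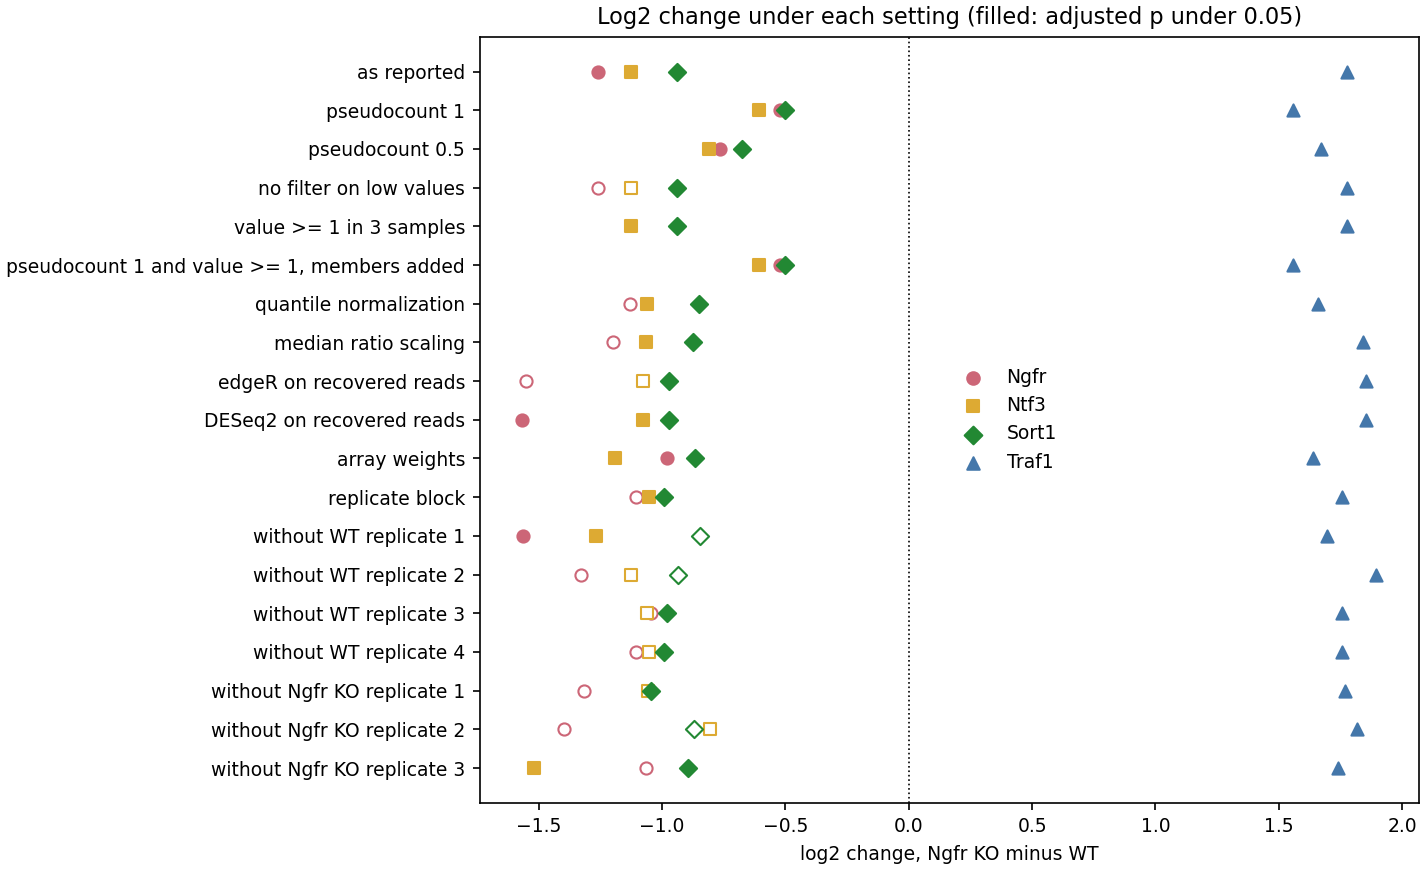
Log2 change, Ngfr KO minus WT, of Ngfr, Ntf3, Sort1 and Traf1 as reported and under each alternative (rows). Filled symbols mark an adjusted p under 0.05, and Ngfr has no value in the row for values of at least 1. The first 3 genes stay below 0 throughout and are not called in some rows, while Traf1 stays above 0 and is called in every row.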

How the data were processed

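RNA of sorted FDCs was sequenced in 7 samples, amplified with SMART-Seq v4 and made into libraries with Nextera XT, per the labels' protocols. The authors deposited 1 table of TMM-normalised signal per gene, TMM being a trimmed mean of M values. The submitters' processing notes list bcl2fastq 2.20.0.422 and the mm10 build, and the aligner, counter and annotation are not given in the sources used here. All values were whole multiples of 1 step per sample (100% within 0.05 of a whole read), which gave whole reads. Depth was 17244925 to 21538400 reads per sample, and 3 reads are a value of 0.0102 to 0.0130.

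Genotypes and replicate numbers came from the sample titles. Values were compared with limma 3.58.1 in R 4.3.3 (lmFit, eBayes with trend, no covariates) on log2(value + 0.1), for genes that reached 0.1 in 3 or more samples. A pseudocount and filter of 1, used in an earlier treatment of these data, would leave Ngfr untested, so that alternative kept the 8 genes whatever the filter. The others were pseudocounts of 1 and 0.5, no filter, a filter of 1 alone, quantile normalization, median ratio scaling, edgeR 4.0.16 and DESeq2 1.42.0 on recovered reads, array weights, a block on replicate number, and each sample left out. Pathway genes that missed the filter were tested by exact permutation over 35 splits. On simulated data with 200 genes changed 4-fold, limma recovered 94% among 14507 genes, and 7.84% of its calls were unchanged genes. For edgeR these were 96.5% among 16961 genes and 3.98%, and for DESeq2 96% among 21176 genes and 11.9%. The simulated counts had the same variability setting for every gene and no outlying sample. Far fewer genes were changed than were called in the data. These rates therefore check the code and are not error rates for the real samples.

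The genes examined and all gene lists were chosen with earlier results of these data known. The text names the 9 genes, pathway genes that were called, Ntf5, Ntrk2 and Ntrk3, the 5 genes most like Ngfr over 7 samples, and markers; other named genes were chosen after their values were seen. A few genes of the lists are not reported here, and the list sizes given are without them. Coordinates and exon lengths are from GENCODE M21 (GRCm38) by identifier, of which 21137 matched and 39 did not. Promoter windows are from RefSeq (GRCm38.p6), which gave them for 2 of the 3 called genes.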

Additional observations from a re-analysis of the deposited data

Results flagged for a closer look

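Mmp3 in WT had 1 sample far from the others. WT replicate 4 had a value of 0.866 and the other WT samples 0 to 0.0412, so that the gap took 0.952 of the group's range, above the 95% critical value of Dixon's test for 4 samples. Of 15 genes examined this way, chance would give 0.75 such cases, and 1 was found. The Ngfr KO samples had Mmp3 values of 1.40 to 2.76, all above WT replicate 4.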

How the results depend on the processing

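Ngfr, Ntf3 and Sort1 kept their direction in every alternative that gave a value, 17 for Ngfr and 18 for each of the other genes. They were called in 6, 11 and 15 of these. For Ngfr the limma or edgeR adjusted p was above 0.05 with no filter (log2 change -1.26), quantile normalization (-1.13), median ratio scaling (-1.20) and edgeR (-1.55). It was called with a pseudocount of 1 or 0.5, DESeq2 and array weights, and with a pseudocount and filter of 1 where it was put back past the filter (-0.52, limma adjusted p = 0.0431). Leaving out 1 replicate at a time gave log2 changes from -1.56 to -1.05 for Ngfr, with 1 of 7 fits calling it. The number of the 8 genes called was 1 with no filter and 1 with edgeR, where 11.3% and 15.2% of all genes were called, and 0 to 2 when 1 replicate was left out, where 11.4% to 24.9% were. A count of 1 of 8 is near these shares. It was 0 without WT replicate 2 and without Ngfr KO replicate 2, where limma gave 3 at an unadjusted p under 0.05 and edgeR and DESeq2 were not run. With array weights 5720 genes were called in all (2719 higher, 3001 lower), and 15 of the pathway genes (9 higher, 6 lower). Leaving out 1 replicate gave 1638 to 3571 genes in all and 2 to 8 pathway genes, the fewest (2) without Ngfr KO replicate 1 and without Ngfr KO replicate 2. Sorcs2 turned to -0.022 without Ngfr KO replicate 3, and leaving out 1 replicate gave -0.022 to 0.41. The cause was not tested. Same-numbered samples had correlations of deviations of 0.23, -0.0032 and 0.033 for replicates 1 to 3. Samples with different numbers had -0.11 to 0.061, so the value for replicate 1 was the highest. Whether the replicate numbers pair the samples was not tested. With the replicate block the Ngfr log2 change was -1.10 (limma adjusted p = 0.0804), and 3231 genes were called against 3244. Ntrk2 and Ntrk3 rest on at most 46 and 44 reads per library.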
